A study of Mus musculus with 50 samples.

Results

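The binding of SUZ12 and the distribution of H3K27me3 were compared between wild-type (WT) and Ezh2 KO mouse embryonic stem cells (ESCs). The members were the peak lists of both ChIP targets in both lines, 4 samples of the 50 in the series, chosen by line and antibody and with the line that lacks both Ezh1 and Ezh2 left out. WT ESCs had 5404 SUZ12 and 16754 H3K27me3 peaks, and Ezh2 KO ESCs had 1578 and 8956. The study asked which parts of Polycomb repression depend on EZH1, on EZH2 and on their catalytic activity.

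WT cells were E14TG2a, a male ESC line with a single X chromosome, grown without feeders in serum medium with LIF and inhibitors of GSK3β and MEK1/2. The Ezh2 KO line was made from E14TG2a by CRISPR/Cas9 with paired guides that cut out the whole Ezh2 gene, so no truncated EZH2 protein remains, and it was grown from a clone. No drug or other allele separates the lines, and Ezh1 is intact in both. For each line and target there is 1 library, so nothing between lines was tested, and the 95% confidence intervals (CI) take in counting error alone, without the differences that separate libraries or clones can show. The sequencing depth of the lists is unknown, and a deeper library gives a longer list.

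Polycomb repressive complex 2 (PRC2) places methyl groups on lysine 27 of histone H3. SUZ12 and EED form its core with either EZH2 or its paralog EZH1, which carry the catalytic domain, and trimethylation (H3K27me3) is read by PRC1 complexes at repressed genes. In ESCs the targets are mostly CpG islands of developmental regulators, such as Hox genes and other homeobox, forkhead, Sox and T-box factors, which stay silent until the cells differentiate. In Ezh2 KO ESCs the only enzyme left to PRC2 is EZH1, known as the weaker methyltransferase, although some SUZ12 can be listed without either enzyme.

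A WT peak was called kept when at least 1 bp of it overlapped an Ezh2 KO peak of the same target, and lost when no listed peak did. Lost therefore means under the threshold of the list, a p of at most 1e-10 for every SUZ12 and H3K27me3 peak, and not absent. New or gained likewise means that no WT peak was listed there, and not that the target was absent in WT. Each peak carries a fold enrichment and a -log10 p over the local background of its own library. The H3K27me3 libraries were spiked with Drosophila chromatin, but this scaling does not enter the lists. A larger fold in 1 list thus does not say that the cells held more of the mark, and strengths were compared as percentile ranks within a list. By western blot the study saw a global loss of H3K27me3 in Ezh2 KO ESCs. It also describes less H3K27me3 at promoters bound by Polycomb proteins in this line.

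To show the kind of DNA that the comparison concerns, 300 bases around the WT SUZ12 summit are given for 3 strong kept sites and 3 strong lost sites whose windows hold no annotated exon. All are on the plus strand of mm9, 5′ to 3′, with every CpG dinucleotide in capitals. The Nkx1-1 window is intergenic, at chr5:33776786-33777085, and holds 36 CpGs. The Barx2 window is intergenic, at chr9:31722565-31722864, and holds 25. The Prdm16 window is intronic, at chr4:154009580-154009879, and holds 37. The lost windows are intronic to the gene they are named for, at chr13:40826893-40827192 (Tcfap2a, 31 CpGs), chr9:36954003-36954302 (Pknox2, 27) and chr15:102786280-102786579 (Hoxc11, 15).
Nkx1-1, kept: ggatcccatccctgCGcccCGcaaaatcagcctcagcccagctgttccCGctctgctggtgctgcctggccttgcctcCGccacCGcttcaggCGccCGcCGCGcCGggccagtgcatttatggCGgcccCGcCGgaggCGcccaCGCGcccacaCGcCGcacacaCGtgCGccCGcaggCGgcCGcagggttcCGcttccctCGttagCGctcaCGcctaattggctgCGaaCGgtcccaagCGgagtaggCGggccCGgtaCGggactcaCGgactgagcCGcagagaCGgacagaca
Barx2, kept: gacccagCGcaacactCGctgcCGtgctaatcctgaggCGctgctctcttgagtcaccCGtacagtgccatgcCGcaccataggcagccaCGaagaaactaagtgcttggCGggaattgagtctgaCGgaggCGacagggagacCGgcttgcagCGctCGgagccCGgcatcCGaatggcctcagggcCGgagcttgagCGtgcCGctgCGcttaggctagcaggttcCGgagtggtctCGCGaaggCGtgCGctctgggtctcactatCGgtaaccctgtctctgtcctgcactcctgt
Prdm16, kept: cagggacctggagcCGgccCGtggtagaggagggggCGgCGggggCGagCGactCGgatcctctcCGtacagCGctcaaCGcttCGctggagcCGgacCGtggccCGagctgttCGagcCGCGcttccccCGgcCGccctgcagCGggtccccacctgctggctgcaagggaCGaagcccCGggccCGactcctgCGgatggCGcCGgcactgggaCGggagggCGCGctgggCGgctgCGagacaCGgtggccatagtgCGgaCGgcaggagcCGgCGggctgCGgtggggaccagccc
Tcfap2a, lost: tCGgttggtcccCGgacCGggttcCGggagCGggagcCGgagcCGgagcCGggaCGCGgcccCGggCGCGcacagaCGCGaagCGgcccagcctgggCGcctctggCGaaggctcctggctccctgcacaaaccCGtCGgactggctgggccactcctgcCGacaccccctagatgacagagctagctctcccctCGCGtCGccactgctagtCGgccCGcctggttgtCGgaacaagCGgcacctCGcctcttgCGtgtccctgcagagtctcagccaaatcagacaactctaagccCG
Pknox2, lost: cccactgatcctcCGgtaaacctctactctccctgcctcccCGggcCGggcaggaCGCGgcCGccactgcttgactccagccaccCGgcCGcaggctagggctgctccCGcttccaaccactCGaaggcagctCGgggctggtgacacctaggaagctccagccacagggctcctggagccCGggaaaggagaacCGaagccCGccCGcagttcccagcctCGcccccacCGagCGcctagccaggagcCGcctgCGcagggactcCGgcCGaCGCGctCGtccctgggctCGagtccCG
Hoxc11, lost: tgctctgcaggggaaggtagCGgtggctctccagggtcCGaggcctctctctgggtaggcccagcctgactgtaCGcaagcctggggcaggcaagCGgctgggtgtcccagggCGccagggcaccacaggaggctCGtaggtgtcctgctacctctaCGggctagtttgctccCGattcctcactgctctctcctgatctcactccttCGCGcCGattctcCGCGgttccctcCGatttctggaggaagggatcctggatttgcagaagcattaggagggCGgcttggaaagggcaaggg

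The SUZ12 peaks in Ezh2 KO ESCs were fewer, and H3K27me3 was listed there in fewer peaks of larger median width. The widths of H3K27me3 depend on how WT peaks were split, as given below. SUZ12 covered 6.24 Mb in WT ESCs, with a median width of 865 bp and a median fold enrichment of 8.71 per peak. Without Ezh2 it covered 1.61 Mb, with medians of 806.5 bp and 7.58. H3K27me3 covered 14.5 Mb in WT ESCs and 14.01 Mb without Ezh2, close in length although the second list was much shorter. The median H3K27me3 peak measured 574 bp with a fold of 6.41 in WT ESCs, and 837 bp with a fold of 9.59 without Ezh2. The upper ends differed most: 95% of the WT peaks had a fold of at most 10.3, against 83.6 in Ezh2 KO ESCs.

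**Figure D1:**
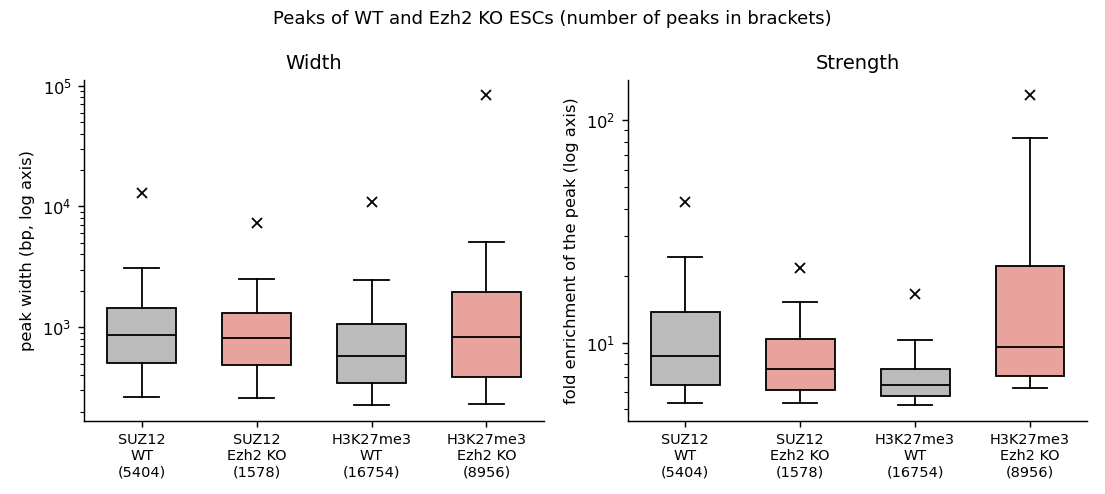
Width in bp (left) and fold enrichment (right) of the peaks of each list, on log axes. Boxes show the median and quartiles, whiskers the 5% and 95% points and crosses the largest value; the Ezh2 KO H3K27me3 list alone reaches folds over 100 (up to 130).

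The widest WT SUZ12 peak (12988 bp) lay at Six3, a homeobox gene of forebrain and eye, and the strongest (-log10 p 201) near Plcb2, which encodes a phospholipase C. The strongest WT H3K27me3 peaks were one on X with no protein-coding gene within 5 kb (-log10 p 72.3), one at Gm1979 (67.9) and one at Shank1 (50.1), a scaffold protein of synapses. The widest Ezh2 KO H3K27me3 peak ran over 83415 bp from Hoxb9 to Hoxb2 (chr11:96133418-96216832, mm9), followed by 31522 bp over Hoxa7 to Hoxa11 and 29729 bp at Cbx8, a subunit of PRC1. The strongest Ezh2 KO H3K27me3 peaks were at the LIM homeobox gene Lhx5 (-log10 p 541), at Nr5a1, a nuclear receptor of gonad and adrenal gland, and at Prdm12, a factor of sensory neurons. Nr5a1 also had the second strongest Ezh2 KO SUZ12 peak (77.1), after Kcnk9 (80.0), a potassium channel gene.

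Overlapping WT and Ezh2 KO peaks were joined into sites, so that a peak split in 1 line was compared whole. SUZ12 had 1254 sites with peaks of both lines, 4135 of WT alone and 10 of Ezh2 KO alone. The median summed width of the shared sites was 1932 bp for the WT and 957.5 bp for the Ezh2 KO peaks, a median log2 ratio of -0.82 (CI -0.87 to -0.77), and 1232 of 1254 sites (98.2%) were narrower in Ezh2 KO ESCs. The median fold was 18.5 in WT and 8.16 in Ezh2 KO ESCs, and only 9 sites had the higher fold in Ezh2 KO ESCs. In 229 sites (18.3%) 1 WT peak corresponded to 2 or more Ezh2 KO peaks. The order of the sites was similar in both lines (Spearman 0.70 for -log10 p and 0.74 for width over the 1254 sites, given as a description).

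H3K27me3 showed the opposite arrangement. Of its sites, 4876 had peaks of both lines, 8346 were of WT alone and 3656 of Ezh2 KO alone. In 1719 shared sites (35.3%) 2 or more WT peaks lay under 1 Ezh2 KO peak, up to 54 WT peaks in a site, while the reverse was seen in 156 sites (3.20%). The median summed width was 1456 bp for the WT and 1709 bp for the Ezh2 KO peaks (log2 ratio 0.15, CI 0.14 to 0.17). This small difference depends on how broken peaks are treated: with peaks less than 1 kb apart merged first, the log2 ratio was -0.08 (CI -0.10 to -0.05). The median fold was 7.69 in WT and 18.1 in Ezh2 KO ESCs, and 91.6% of the sites had the higher fold in Ezh2 KO ESCs, against 0.718% of the shared SUZ12 sites. The ranks of the H3K27me3 sites were less alike than those of SUZ12 (Spearman 0.57 for -log10 p).

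Which sites kept SUZ12 followed their strength in WT. Of all WT SUZ12 peaks, 23.5% were kept (1269 of 5404, CI 22.4 to 24.6). By deciles of -log10 p, the kept share was 0.739% for the weakest WT peaks (4 of 541), 8.32% in decile 6, 38.4% in decile 8 and 93.9% for the strongest (507 of 540), and 98 of the 100 strongest peaks were kept. By width it was 0.924% for the narrowest and 83.7% for the widest decile. Of all WT H3K27me3 peaks, 50.2% were kept (8408 of 16754, CI 49.4 to 50.9), with 21.5% of the weakest and 94.4% of the strongest decile. The share changed with the part of the WT list taken. Among as many of the strongest WT peaks as the Ezh2 KO list has, 69.2% of SUZ12 and 68.0% of H3K27me3 peaks were kept.

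**Figure D2:**
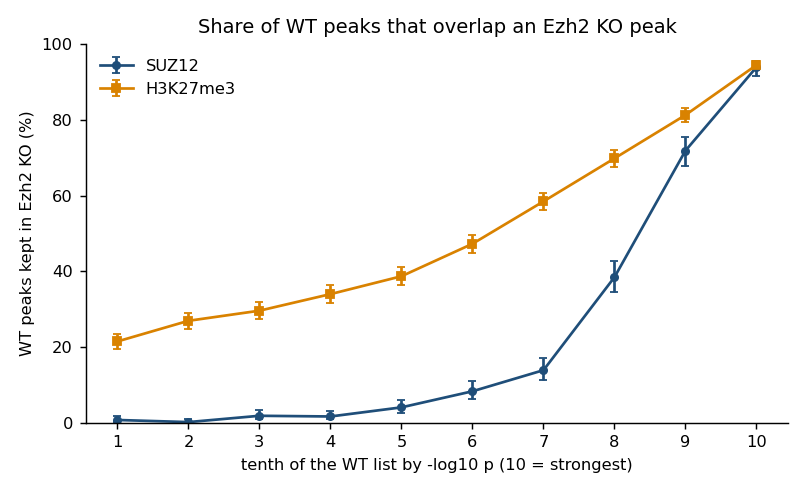
Percent of WT peaks that overlap an Ezh2 KO peak of the same target, by decile of the WT list from weakest (1) to strongest (10), with Wilson 95% intervals. SUZ12 stays under 10% up to decile 6 and reaches 93.9% in the last, while H3K27me3 starts at 21.5% and reaches 94.4%.

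The strongest decile of WT SUZ12 peaks held 33 lost peaks. Chromosome 15 had 6 of them among its 25 peaks in the decile, and chromosome 2 had 6 among 62. Of the 6 on chromosome 15, 5 were in the Hoxc cluster (at Hoxc9, Hoxc11, Hoxc8, Hoxc12 and Hoxc4 to Hoxc6) and the last at Ankrd33b. Another 2 lay at Tcfap2a, which encodes AP-2alpha, a factor of neural crest and epidermis. The others included peaks at Gata3, Pou4f2, Otp, Foxd3 and Nr4a2, which encode transcription factors, at Fgf3 and at Bmi1, a PRC1 subunit. A lost peak does not make the promoter lost in the counts below. The Gata3 promoter counts there as kept, through another Ezh2 KO SUZ12 peak of 404 bp. An Ezh2 KO H3K27me3 peak lay over 29 of the 33. The 4 without were at Hmga2, Itpka, Meis2 and Hoxc12.

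At promoters, taken as 5 kb on either side of any transcription start site (TSS) of 22225 protein-coding genes, the kept share was higher for H3K27me3 than for SUZ12. Of 3212 promoters with SUZ12 in WT, 936 kept it (29.1%, CI 27.6 to 30.7). Of 4184 promoters with H3K27me3 in WT, 2926 kept it (69.9%, CI 68.5 to 71.3). With each WT list limited to its strongest peaks, as many as in Ezh2 KO ESCs, the shares were 70.9% for SUZ12 and 80.7% for H3K27me3. This limit both shortens the list and selects strong peaks, and their parts in the narrower gap were not tested. With p of at most 1e-20 in both lists, the shares were 25.02% for SUZ12 and 88.5% for H3K27me3, a wider gap. H3K27me3 was present in Ezh2 KO ESCs at 2627 of the 3212 WT SUZ12 promoters (81.8%), which includes 1691 of the 2276 that lost SUZ12 (74.3%, CI 72.5 to 76.1). Of the 2002 promoters that had both in WT and lost SUZ12, 1602 kept H3K27me3 (80.0%). All 937 promoters with SUZ12 in Ezh2 KO ESCs also had H3K27me3 there (CI 99.6 to 100). Where H3K27me3 stood without a SUZ12 peak in WT, it was kept at 397 of 1255 promoters (31.6%). In the Ezh1/2 dKO line, which lacks both enzymes, 20 of the 4184 promoters had an H3K27me3 peak (0.478%) and 228 of the 3212 a SUZ12 peak (7.10%).

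The states of the promoters differed in the WT strength of SUZ12 and in the H3K27me3 that remained. The 927 genes that kept both had a median WT SUZ12 percentile of 89.9 and, in Ezh2 KO ESCs, H3K27me3 peaks with a median fold of 79.9 and a median width of 4373 bp. The 1602 that lost SUZ12 and kept H3K27me3 had a median WT SUZ12 percentile of 53.0 and Ezh2 KO H3K27me3 peaks of fold 20.2 and 1759 bp. The 400 that lost both stood at percentile 31.2, and the 185 that lost SUZ12 and had H3K27me3 in neither line at 18.6. Over the whole Ezh2 KO H3K27me3 list, the 1024 peaks on Ezh2 KO SUZ12 had a median fold of 77.7, the 2415 on WT SUZ12 sites without Ezh2 KO SUZ12 18.6, the 2162 on WT H3K27me3 alone 8.81 and the 3355 on no WT peak 7.35. The first class made up 11.4% of the peaks and covered 5.40 of the 14.01 Mb. The last class was the least tied to promoters, with 27.2% within 5 kb of a TSS against 89.7% of the first.

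Most families of developmental transcription factors had a higher kept share of SUZ12 than the 29.1% of all WT SUZ12 promoters, a difference that was not tested. They also had strong SUZ12 in WT, with a median percentile of 86.5 for T-box genes, 94.5 for ANTP-class and 96.0 for paired, LIM and sine oculis homeobox genes, and strong peaks were kept more often throughout. With the WT list limited to its strongest peaks, the gene lists together kept 79.6% against 70.9% of all promoters, where the values are otherwise 57.8% and 29.1%. Of the 55 ANTP-class homeobox genes outside the Hox clusters with SUZ12 in WT, 43 kept it. For the paired, LIM and sine oculis homeobox genes the count was 43 of 52, for forkhead genes 17 of 23, for Sox genes 10 of 14, for T-box genes 7 of 12, for tissue bHLH genes 20 of 36 and for GATA factors 5 of 5. In each of these lists the gene with the strongest WT SUZ12 peak kept it. The Nkx2-1 promoter, a gene of lung, thyroid and forebrain, went from a SUZ12 fold of 36.8 to 16.9 and Foxa2, an endoderm factor, from 32.4 to 14.6. H3K27me3 at Nkx2-1 stood at a fold of 10.3 in WT and 120 in Ezh2 KO ESCs, and at Foxa2 at 13.6 and 107. Members without an Ezh2 KO SUZ12 peak included the neural crest gene Sox10 (fold 12.9) and the heart gene Tbx20 (13.5). The list of paired, LIM and sine oculis genes also holds the POU homeobox gene Pou4f2, a factor of retinal ganglion cells. Its WT fold of 21.2 was the strongest among the members of that list that lost SUZ12. The Zic and Sall zinc finger genes kept SUZ12 at 2 of 6 promoters, Zic1 and Zic4, which share a peak, and the other 4 lost both SUZ12 and H3K27me3.

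Lists of other functions varied. Among signalling genes, Wnt ligands kept SUZ12 at 11 of 18 promoters, Hedgehog pathway genes at 5 of 8, BMP and TGF-beta ligands at 9 of 17 and FGF ligands at 6 of 14. H3K27me3 was kept at 18 of 18, 7 of 7, 13 of 18 and 12 of 15 in the same order (69.9% over all promoters). At Wnt11 the SUZ12 fold was 30.6 in WT and 10.5 in Ezh2 KO ESCs, and at Shh 23.9 and 13.7. The neuronal lists had shares near the 29.1% of all promoters: 9 of 33 axon guidance genes, 11 of 29 voltage-gated potassium channels and 16 of 49 neurotransmitter receptors kept SUZ12. They kept H3K27me3 at 30 of 35, 28 of 30 and 48 of 53 promoters. Grin1, an NMDA receptor subunit, was 1 of them, with a WT SUZ12 fold of 19.1, no Ezh2 KO SUZ12 peak and an H3K27me3 fold of 11.3 in WT and 58.2 in Ezh2 KO ESCs. Cdkn1c, an imprinted inhibitor of the cell cycle, kept SUZ12 (fold 26.0 and 16.3), while Cdkn2c and Cdkn2a did not, and Cdkn2a also lost H3K27me3. Among 16 pluripotency factors, 4 promoters had SUZ12 in WT, and Esrrb kept it (fold 18.9 and 7.31). Phf19, the only PRC2 subunit gene with a WT SUZ12 peak, lost SUZ12 and kept H3K27me3. Of the 15 loci that the study displays, which were picked there on these data and are no independent evidence, 13 kept SUZ12 and all kept H3K27me3; Mmp25 and Olig3 lost SUZ12.

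**Figure D3:**
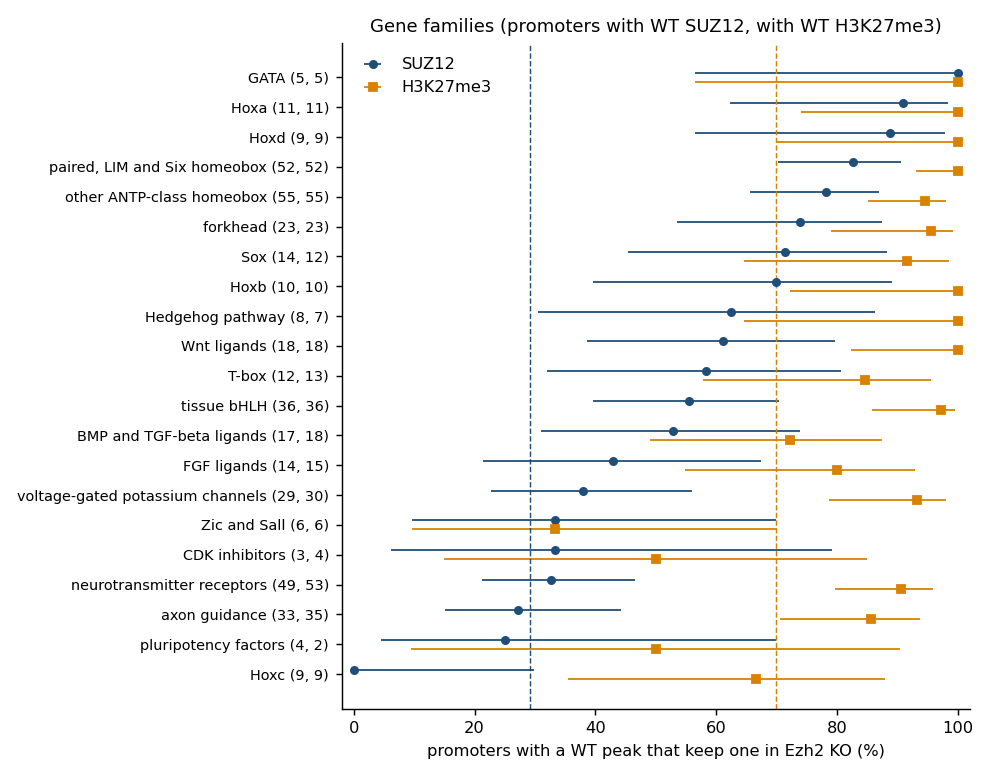
Percent of promoters with a WT peak that keep one in Ezh2 KO ESCs, by gene list, for SUZ12 (circles) and H3K27me3 (squares), with Wilson 95% intervals; dashed lines mark all promoters (29.1% and 69.9%) and brackets give the promoters with WT SUZ12 and with WT H3K27me3. Homeobox lists and GATA factors stand at the top and the Hoxc genes at the bottom, with 0 of 9 for SUZ12.

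The 4 Hox clusters, which encode the factors that pattern the body axis, began alike in WT and ended apart. In WT each held 29 to 34 SUZ12 peaks, with highest folds between 27.1 and 32.0, and H3K27me3 over 72.1 to 88.0 kb. In Ezh2 KO ESCs Hoxa held 23 SUZ12 peaks over 25.8 kb, Hoxb 17 over 13.7 kb and Hoxd 19 over 19.7 kb. The Hoxc cluster (chr15:102746534-102872274 in mm9, with 5 kb added at both ends) went from 32 SUZ12 peaks over 48.2 kb to 0. H3K27me3 covered 92.2 kb of Hoxa, 98.8 kb of Hoxb and 80.4 kb of Hoxd in Ezh2 KO ESCs, with highest folds of 126, 105 and 126. In Hoxc it covered 85.2 kb in WT and 13.6 kb in Ezh2 KO ESCs, with a highest fold of 27.1.

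Gene by gene, SUZ12 was kept at 10 of 11 Hoxa, 7 of 10 Hoxb and 8 of 9 Hoxd promoters, and at 0 of 9 Hoxc promoters (CI 0 to 29.9), against 29.1% of all WT SUZ12 promoters. Neighbouring Hox genes often share a peak, so they are not independent. H3K27me3 was kept at every Hoxa, Hoxb and Hoxd promoter with it in WT and at 6 of 9 Hoxc promoters. The Hoxc9 promoter had a WT SUZ12 fold of 28.1, at percentile 99.4 of the WT list, above Hoxb5 (27.1), which kept a peak of fold 7.17. The Hoxc9 H3K27me3 peak had a fold of 9.41 over 10328 bp in WT and of 27.1 over 4535 bp in Ezh2 KO ESCs. Hoxc10, Hoxc12 and Hoxc13 had no H3K27me3 peak in Ezh2 KO ESCs. The count of 0 for Hoxc was the same with a stricter p of 1e-20, with promoters of 1 kb and with the shortened WT list. The DNA copy number of the cluster in this clone was not examined. A loss of PRC2 and a loss of DNA there therefore cannot be told apart from the SUZ12 peaks alone. In Ezh2 KO ESCs 8 H3K27me3 peaks were still listed in the cluster, and RNA of Hoxc genes was counted, as given below.

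**Figure D4:**
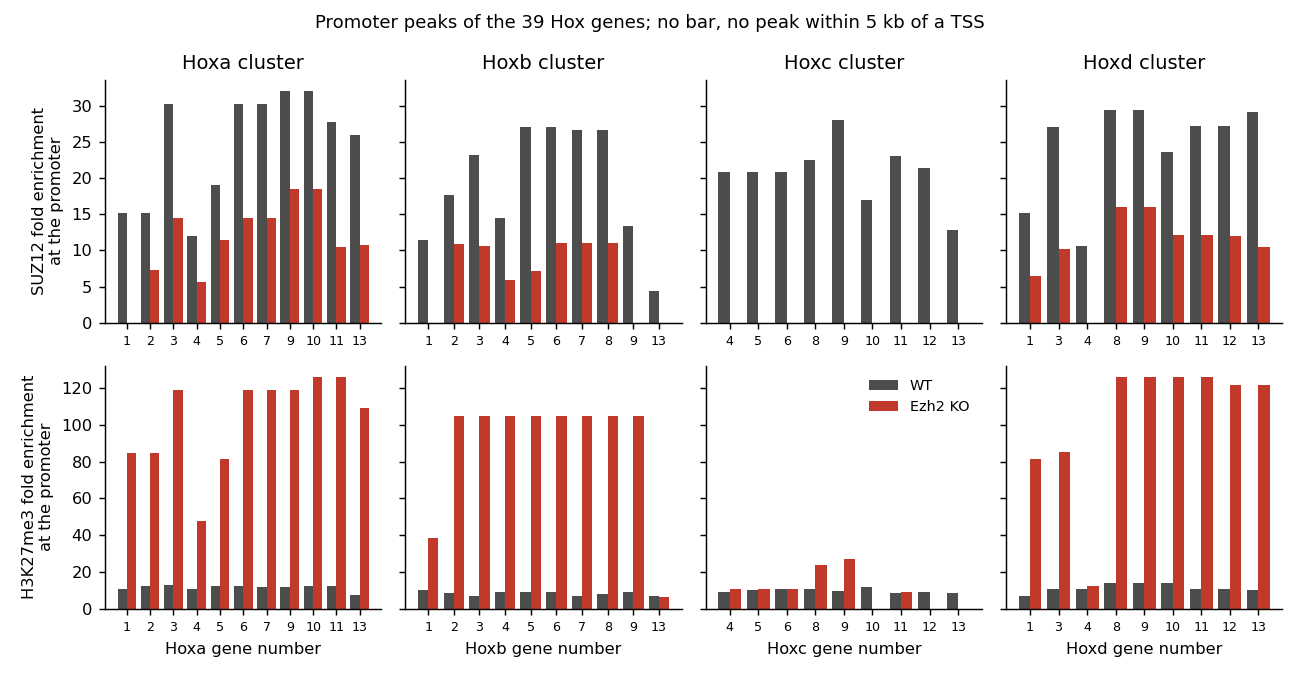
Fold enrichment of the strongest SUZ12 peak (upper row) and H3K27me3 peak (lower row) within 5 kb of a TSS of each Hox gene, in WT (grey) and Ezh2 KO (red) ESCs; neighbouring genes can share a peak. SUZ12 bars of Ezh2 KO ESCs are missing for all Hoxc genes, and Ezh2 KO H3K27me3 in Hoxc reaches a fold of 27.1 against 105 to 126 in the other clusters.

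Among single promoters, those with the strongest WT SUZ12 that kept it were Plcb2, Sema5b (a semaphorin), Uncx and Alx4 (paired homeobox genes), Nkx1-1, Irx3, Skor1 (a corepressor) and Cdx2 (a trophectoderm and hindgut factor). Their WT folds were between 31.3 and 42.9 and their Ezh2 KO folds between 13.6 and 20.4. The Plcb2 peak was 3663 bp wide in WT (chr2:118527214-118530876) and 2851 bp in Ezh2 KO ESCs, at the 100th and the 99.8th percentile of the lists. It lay beyond the 3′ end of Plcb2 (chr2:118533253-118554174, minus strand) and was also within 5 kb of Gm1337. It thus counted through a TSS other than that at the 5′ end of Plcb2. The SUZ12 peak of Uncx went from 5512 to 2183 bp, while its strongest H3K27me3 peak went from 1166 to 23725 bp. Such widths of single H3K27me3 peaks leave out other WT peaks that can lie under the same Ezh2 KO peak.

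The strongest WT SUZ12 promoters without an Ezh2 KO peak were Hoxc9, Tcfap2a, Mto1, Pknox2 (a TALE homeobox gene), Spry4 with Arhgap26, Fosl2, Hmga2 and Nt5e, with WT folds between 24.7 and 30.3. Hmga2, a chromatin protein of embryonic cells, lost H3K27me3 too, from a WT peak of 530 bp and fold 7.97. At the other promoters an H3K27me3 peak remained, at percentiles between 70.8 and 80.1 of the Ezh2 KO list against 81.9 to 98.5 in WT. Tcfap2a, shown above, had H3K27me3 folds of 11.2 in WT and 18.7 in Ezh2 KO ESCs and widths of 3731 and 2937 bp.

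The strongest WT H3K27me3 promoters that lost it were Trappc6a, Oas1f, Nhlrc4, Itpka (an inositol trisphosphate kinase), Hoxc10, Chst3, Necab3 and Duox1. The Trappc6a peak was 6121 bp wide with a WT fold of 15.9 (percentile 99.98), and 4 of the 8 had no SUZ12 peak in WT. The peaks of Trappc6a and of Ap1s1, named next, lay beyond the 3′ ends of these genes. Those of Chst3 and Necab3 lay inside the genes, more than 5 kb from the 5′ end. Each of these peaks counted through a TSS other than that at the 5′ end. The strongest new H3K27me3 promoters in Ezh2 KO ESCs were Ap1s1, Slc25a4 (a mitochondrial ADP/ATP carrier), Tmem28, Sox3 (a neural progenitor factor), Zar1 (an oocyte factor), Nefm (a neurofilament protein), Pcdh19 and Cited1, with folds between 51.2 and 62.9. Of these 8, 7 had SUZ12 in WT and 4 lie on the X chromosome. Epb4.1l3, a protein of the membrane skeleton, was the only named gene with SUZ12 in Ezh2 KO ESCs alone, over 388 bp, and its H3K27me3 fold was 7.30 in WT and 26.8 in Ezh2 KO ESCs.

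Ranks moved unevenly at promoters with peaks in both lines. SUZ12 percentiles were lower in Ezh2 KO ESCs, by a median of 25.1 points over 936 genes. The kept promoters are the strong part of the WT list, and how far this shapes the fall was not tested. The largest rise, 48.3 points, was at the promoter shared by Nt5c2 and Ina (alpha-internexin, a neuronal filament), which went from a SUZ12 peak of 333 bp and percentile 8.99 to 756 bp and percentile 57.3. Its H3K27me3 went from a fold of 5.87 and 343 bp to 78.1 and 4126 bp. Ptprs, Tcfap2c (AP-2gamma), Hdgfrp3 and Bhlhe41 followed. The largest falls were at Mapt, which encodes tau (percentile 91.2 to 0.190), Nhlh2, Rax and Vax2 (eye development) and Sox7. All 5 had an Ezh2 KO H3K27me3 peak at percentiles of 80.0 to 88.1. For H3K27me3 the largest rises were at Cnksr2, Nt5c2 with Ina, Kif21a, Dgkk and Hs6st2, with Cnksr2, Dgkk and Hs6st2 on the X chromosome. The largest falls were at Ctif (percentile 99.6 to 10.2), Rnf220, Esrra, Cpz and Plxna1 (a semaphorin receptor), and all 5 lost SUZ12.

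The X chromosome stood apart in H3K27me3. In WT it held 87 H3K27me3 peaks (0.519% of the list) and 118 SUZ12 peaks (2.18%). Whether the WT H3K27me3 list used here is complete on X is not known, and each value for new X peaks and genes, those named above included, rests on it. In Ezh2 KO ESCs it held 294 H3K27me3 peaks, of which 236 (80.3%, CI 75.3 to 84.4) overlapped no WT peak, against 39.4% (CI 38.4 to 40.5) on the autosomes. Among WT SUZ12 promoters on X, 27 of 61 (44.3%) had H3K27me3 in WT and 52 of 61 (85.2%) in Ezh2 KO ESCs. On the autosomes the shares were 92.1% of 3151 in WT and 81.7% in Ezh2 KO ESCs. SUZ12 itself was kept at 17 of the 61 promoters (27.9%), close to the 29.1% overall. Across autosomes the kept share of SUZ12 peaks lay between 16.7% (chromosomes 10 and 15) and 29.9% (chromosome 5), and that of H3K27me3 peaks between 41.1% (chromosome 4) and 62.7% (chromosome 8).

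Other lists of the series, which the choice of these members did not use, separated kept from lost WT SUZ12 peaks. HA-tagged EZH1 expressed in Ezh1/2 dKO ESCs had a peak on 1250 of the 1269 kept peaks (98.5%) and on 1547 of the 4135 lost peaks (37.4%). The HA list of cells without the tag overlapped 1.97% and 0.822%. Lost peaks with Ezh2 KO H3K27me3 had HA-EZH1 at 47.5% and those without at 8.76%. The share also went with WT strength. In the strongest quintile it was 99.8% of kept and 93.0% of lost peaks, and in the next 97.5% and 74.2%. In the middle quintile it was 89.6% and 42.7%, and in the one below 89.5% (of only 19 kept peaks) and 21.8%. The weakest quintile had it on 4 of 5 kept peaks and on 11.1% of lost peaks. H3K27ac of Ezh2 KO ESCs, a mark of active chromatin, lay on 0.394% of kept peaks, 1.08% of lost peaks with Ezh2 KO H3K27me3 and 16.4% of lost peaks without it (176 of 1073, CI 14.3 to 18.7). H3K27ac of WT ESCs was not compared, so these shares do not say whether the acetylation was already there in WT. In the Ezh1/2 dKO line SUZ12 was listed on 18.9% of kept and 0.605% of lost peaks. Of kept and lost summits, 83.8% and 83.0% lay in a WT ATAC-seq region and 83.6% and 82.9% in an Ezh2 KO region. The ATAC-seq lists are broad and permissive, over 618 Mb in WT and 630 Mb in Ezh2 KO ESCs. Their median -log10 p was 1.35 in both lines, so these shares say little about accessibility.

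H3K27me2, the step before trimethylation, was listed over nearly all of these sites in Ezh2 KO ESCs and few in WT. Chromosome 8, on which the WT list used here holds no region, was left out, and whether that list is complete elsewhere is not known. On the other autosomes, WT H3K27me2 regions covered 0.119% of the bases of kept SUZ12 peaks and 4.09% of those of lost peaks, and Ezh2 KO regions 95.5% and 94.9%. Where H3K27me3 had been lost off SUZ12, the cover was 7.12% in WT and 97.8% in Ezh2 KO ESCs, and where it was kept off SUZ12, 1.32% and 99.98%. The lowest Ezh2 KO cover of these sets, 79.3%, was on lost SUZ12 peaks without Ezh2 KO H3K27me3. These lists are broad and permissive, over 355 Mb in WT and 401 Mb in Ezh2 KO ESCs, with a median -log10 p of 1.37 and 1.51.

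CpG density was higher at kept than at lost SUZ12 sites, and close between them among peaks of like strength. In 500 bp around the WT summit, kept peaks had a median of 8.6 CpGs per 100 bases (CI 8.6 to 8.8), lost peaks 6.8 (CI 6.8 to 7.0) and the TSS of all protein-coding genes 4.8. Within the strongest quintile of the WT list the medians were 9.0 for kept (CI 8.8 to 9.2) and 8.8 for lost peaks (CI 8.4 to 9.0), and within the next quintile 7.8 for both. The windows printed above overlapped in their CpG counts, with Barx2 (kept) below Tcfap2a and Pknox2 (lost) and Hoxc11 (lost) lowest. Lost SUZ12 peaks with and without Ezh2 KO H3K27me3 had 6.8 and 7.0. H3K27me3 peaks off SUZ12 had 1.4 where kept and 1.2 where lost.

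RNA-seq of the same lines, 2 libraries each, had Ezh2 at 598 and 546 normalized counts in WT and 1.05 and 0.968 in Ezh2 KO ESCs (log2 fold change -8.16, SE 0.39, limma adjusted p = 4.698e-05). The other PRC2 genes did not pass the test; Ezh1 had 227 and 377 in the WT libraries against 372 and 378 in the Ezh2 KO libraries, and Suz12 603 and 530 against 668 and 592. Summed ESC markers (Pou5f1, Nanog, Esrrb and 5 more) were 15269 and 14048 in the WT libraries against 14076 and 14214 in the Ezh2 KO libraries. Markers of other cell types summed to far less: trophectoderm 491 and 365 against 533 and 636, neural 1351 and 546 against 547 and 884, primitive endoderm 167 and 117 against 128 and 91.9, and streak and mesoderm 48.0 and 43.3 against 17.8 and 28.1. Nothing in the labels says that the 2 libraries of a line were separate cultures, so p-values measure only the spread between libraries. In bulk RNA, fewer cells that express a gene and less RNA per cell cannot be told apart. Of 13872 genes tested, 56 were called (0.404%), 13 higher (0.0937%) and 43 lower (0.31%) in Ezh2 KO ESCs. The count depended on single libraries, with 16 genes called without WT replicate 1, 153 without WT replicate 2, 21 without Ezh2 KO replicate 1 and 6 without Ezh2 KO replicate 2.

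Genes that kept SUZ12 had little RNA in either line, with lower medians in both Ezh2 KO libraries than in both WT libraries. Over all 807 of them in the table, filtered or not, the median normalized count per kb of transcript was 0.571 and 0.648 in the WT libraries and 0.328 and 0.338 in the Ezh2 KO libraries, and the Ezh2 KO mean was the lower for 495 and the higher for 227. Genes that lost SUZ12 and kept H3K27me3 had medians of 1.91 and 1.86 in the WT libraries against 1.39 and 1.56 in the Ezh2 KO libraries. Genes that lost both had 11.1 and 10.6 in the WT libraries against 10.8 and 13.4 in the Ezh2 KO libraries, so here the libraries overlapped, and the Ezh2 KO mean was higher for 233 of 374 genes. Genes with no peak in either line had 39.8 and 43.8 in the WT libraries against 42.6 and 43.5 in the Ezh2 KO libraries. Genes past the filter are not all members (389 of 807 with SUZ12 kept). The filter took the mean of all 8 libraries of 4 lines, not of WT and Ezh2 KO alone, so a gene can pass through the other lines. Gata4, with SUZ12 kept, passed with 2.67 and 4.81 counts in the WT libraries against 3.14 and 5.81 in the Ezh2 KO libraries. Among genes past the filter, the median log2 fold change was -0.55 for SUZ12 kept and -0.12 for SUZ12 lost with H3K27me3 kept. It was 0.19 for both lost and -0.01 over all genes. How far genes that passed through the other lines shape these values was not tested. The 41 genes with new H3K27me3 on X had medians of 2.41 and 2.93 in the WT libraries against 1.39 and 1.74 in the Ezh2 KO libraries. These medians lie near the low end of what the libraries can count, and they describe these 4 libraries with no test.

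**Figure D5:**
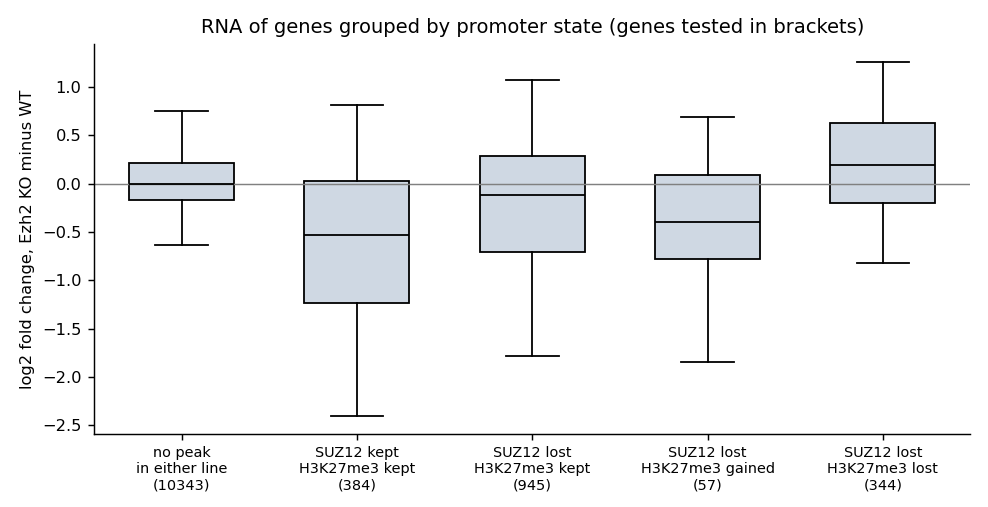
Log2 fold change of RNA (Ezh2 KO minus WT) of the genes past the filter, grouped by promoter state; boxes show median and quartiles and whiskers the 5% and 95% points. The box of genes that kept SUZ12 and H3K27me3 lies lowest (median -0.53) and that of genes that lost both lies highest (0.19).

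Of the 1897 tested genes with SUZ12 in WT, 4 were called higher (0.211%) and 11 lower (0.580%), against 0.0937% and 0.31% of all genes. The 4 that rose had all lost SUZ12, as had 8 of the 11 that fell and 1508 of the 1897 tested. Tcfap2a had 24.0 and 54.9 normalized counts in WT and 170 and 179 in Ezh2 KO ESCs (log2 fold change 2.23, SE 0.38, limma adjusted p = 0.0758). Meis2, a TALE homeobox partner of Hox proteins, had 204 and 210 in the WT libraries against 551 and 518 in the Ezh2 KO libraries (1.36, SE 0.19, limma adjusted p = 0.0262). Its relative Meis1 had 29.3 and 16.4 against 101.4 and 77.4 (1.965, SE 0.36, limma adjusted p = 0.0909). Hmga2 had 179 and 220 against 427 and 463 (1.16, SE 0.19, limma adjusted p = 0.0568). Libraries of the lines did not overlap for any of the 4, which the call itself favours, so this is no further support. The share of all tested genes without overlap was not counted. Meis2 and Hmga2 lost H3K27me3 as well, while Tcfap2a and Meis1 kept it.

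Of the 11 that fell, Arhgef26 had the smallest p, with 252 and 257 counts in WT and 37.6 and 45.5 in Ezh2 KO ESCs (log2 fold change -2.59, SE 0.24, limma adjusted p = 0.00465). Aldh1a2, which makes retinoic acid, kept SUZ12 and H3K27me3 and had 127 and 119.4 against 25.1 and 24.2. Ptrf, a caveolar protein, kept SUZ12 and gained H3K27me3 and had 538 and 397 against 139 and 198. The others were Pnma2, Trib2, Fam124a, Cacna1s, Shroom4, Arg2, Dcc and Inpp4b, of which Trib2 kept SUZ12 and the rest did not. Calls at this number of libraries were fragile. Arhgef26 passed in all 11 alternative fits, Meis2 in 8, Hmga2 in 6, Tcfap2a and Ptrf in 4, Aldh1a2 in 3 and Meis1 in 1. Without WT replicate 1 the limma adjusted p was 0.153 for Meis2, 0.241 for Hmga2, 0.207 for Tcfap2a, 0.116 for Meis1, 0.327 for Ptrf and 0.318 for Aldh1a2. Without Ezh2 KO replicate 1 it was 0.207, 0.228, 0.266, 0.345, 0.332 and 0.273 in the same order, and without Ezh2 KO replicate 2 0.244, 0.371, 0.403, 0.333, 0.217 and 0.403. Without WT replicate 2 Meis1 (0.131) and Aldh1a2 (0.118) did not pass.

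No Hox gene was called, where 0.404% of all genes tested were. The Hoxc genes had few counts: Hoxc10 had 0 and 4.81 in the WT libraries against 13.6 and 15.5 in the Ezh2 KO libraries (log2 fold change 2.69, SE 0.79, limma adjusted p = 0.298), and Hoxc4 had 21.3 and 7.70 against 22.0 and 51.3 (1.31, SE 0.57, limma adjusted p = 0.549). Hoxc13 had 12.01 and 79.9 in WT against 55.4 and 79.3, so its libraries overlapped. The 6 Hoxc genes past the filter had a median log2 fold change of 1.21, the 6 Hoxa genes 0.31, the 3 Hoxb genes -0.06 and the 5 Hoxd genes 0. Over the other lists of developmental factors, ligands and channels no member was called, except Dcc, an axon guidance receptor. It had 41.4 and 7.70 counts in WT and 0 and 0 in Ezh2 KO ESCs and passed in 2 of the 11 alternative fits. With 0.404% called over all genes and many members under the filter, such low counts of calls say little about these families.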

How the data were processed

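ChIP-seq reads had been aligned by the authors to mm9 with Bowtie, freed of duplicates with Picard and used for peak calling with MACS2. The deposited lists give each peak's fold (a ratio over local background) and -log10 p; every SUZ12 and H3K27me3 peak had a p of at most 1e-10. The deposited H3K27me2 and ATAC-seq region lists were used as given, and positions alone of the deposited HA lists. The RNA-seq values are a deposited signal, read counts from TopHat and HTSeq divided by the authors' DESeq2 size factors; 100% of the values came out as whole reads (tolerance 0.01), 3604123 to 5181553 per library. Deposited columns of the authors' own comparisons (log2 fold changes and p-values) were not used.

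Peaks were analysed in pandas 2.3.3 and scipy 1.17.1 (numpy 2.4.6, Python 3.11.15) and drawn with matplotlib 3.10.9. Genes came from the GENCODE annotation of mm9; 15709 of 22225 were found in the RNA table by symbol and 747 by synonym. Shares have Wilson intervals and medians distribution-free ones. RNA was fitted with limma 3.58.1 in R 4.3.3 (trend, log2 of normalized count plus 1, 8 libraries of 4 lines, mean of at least 5), with Benjamini-Hochberg adjustment, and a gene was called where the adjusted p was below 0.1 and the log2 fold change was 1 or more either way. edgeR 4.0.16 was run on the recovered reads. Scripts were tested on simulated data. The members and gene lists were chosen with earlier results of these data known. Genes were named by a fixed rule: the 8 strongest promoters of each state, the 5 largest rank changes each way, up to 3 members of each state in a list, and called genes with WT SUZ12. The remaining strong lost peaks were named after their values were seen. Ventx, Foxl1, Sox1 and Disp1 of the lists were not matched. Alternatives changed the threshold, list length, overlap, promoter distance, merging, CpG window, and the filter, pseudocount, scaling, samples and test of the RNA fit.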

Additional observations from a re-analysis of the deposited data

How the results depend on the processing

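With p of at most 1e-20 in both lists, the percent kept was 21.1 for SUZ12 peaks, 84.0 for H3K27me3 peaks, 25.02 for SUZ12 promoters, 88.5 for H3K27me3 promoters, 92.7 for promoters that lost SUZ12 and kept H3K27me3 and 47.8 for SUZ12 over the gene lists (57.8 as reported, 417 promoters). The width ratio (log2) was then -0.68 for SUZ12 and 0.42 for H3K27me3, the Spearman correlation 0.67 and 0.35, and the CpG difference between kept and lost peaks 1.2 per 100 bases in place of 1.8. With the WT list limited to its strongest peaks, the percents were 69.2, 68.0, 70.9, 80.7, 92.7 and 79.6 in the same order, the H3K27me3 width ratio 0.19 and its Spearman correlation 0.52. With at least 50% of the WT peak covered, 13.9% of SUZ12 and 44.4% of H3K27me3 peaks were kept. With promoters of 1 kb, 74.4% kept H3K27me3 and 82.0% of those that lost SUZ12 did. Merging peaks under 1 kb apart gave width ratios of -0.997 for SUZ12 and -0.079 for H3K27me3, a reversed direction. The cause of these shifts was not tested. The remaining 10 values of these comparisons moved by less than their interval or 1.5 times.

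The 56 RNA calls became 35 without the filter on low values, 30 with edgeR and 6 to 153 when a library was left out: 16 without WT replicate 1, 153 without WT replicate 2, 21 without Ezh2 KO replicate 1 and 6 without Ezh2 KO replicate 2. Replicate numbers did not pair the libraries (correlation of deviations -0.065 over 13872 genes); with the number as a replicate block 34 genes were called, and 22 by edgeR with the block, an alternative added after seeing the data, as were those on gene lists. Ezh2 and Arhgef26 were called in all 11 alternative fits. For single genes called, 108 values under the alternatives kept their direction and side of the threshold and 145 kept the direction but no longer passed. Depth is unknown for the peak lists, so a weak lost site cannot be told from one under the threshold.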
